A study of Mus musculus with 86 samples.

Results

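RNA was compared between the neurites and the soma of human motor neurons that had received a control shRNA. The comparison rested on 6 of the 86 RNA-seq libraries of the series, taken by their sample labels: 3 of Human MN shCtrl neurite and 3 of Human MN shCtrl soma. The neurons were differentiated from human induced pluripotent stem cells (iPSCs) of 1 donor and grown on porous membranes, whose pores let neurites pass to the underside while cell bodies stay on top, so that scraping separates both compartments. All human cultures were infected with a lentiviral shRNA vector and selected with puromycin, and 6 membranes were combined for each preparation. The other human arm of the same design, 3 Human MN shTDP43 neurite and 3 Human MN shTDP43 soma libraries of cells with an shRNA against TDP-43, served as further libraries in which a result could be looked for again. Neurite and soma libraries of the mouse neuronal lines CAD and N2A, 3 of each compartment in each line, stand beside them at the end. These lines have the genotype TetOff TDP-43: their own TDP-43 alleles were inactivated with CRISPR/Cas9 in selected clones, and an HA-tagged TDP-43 transgene that doxycycline shuts off is the functional copy left. No doxycycline was given to the libraries used here. The control cells carried the scramble shRNA and the other arm the TDP-43 shRNA, shown here because this insert is the one labelled difference between the arms (both 5′ to 3′, with no part set apart by capitals):
scramble: cctaaggttaagtcgccctcg
TDP-43: agatcttaagactggtcattc

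Neurons send many mRNAs into axons and dendrites, where they can be translated far from the nucleus. Transcripts encoding ribosomal and mitochondrial proteins are well known among RNAs abundant in projections of cultured neurons, while nascent and nuclear RNA is held in the soma. Neurite enrichment is given below as the localization ratio (LR), the log2 ratio of the level in neurites to the level in soma, so that an LR of 1 is a doubling and a negative LR is a lower level in neurites.

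The files list 203028 human transcripts with no gene names, and no human annotation was used here. Transcripts were therefore tested singly, without sums over genes, and are identified by Ensembl transcript ID and length alone. Marker genes of motor neurons, of other cell types or of the nucleus were not checked for the same reason, and neither was the transcript of TDP-43 itself. In such bulk fractions, fewer cells of a type and less RNA per cell cannot be told apart.

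The 6 control libraries agreed poorly with each other, and this limits every result that follows. Neurite replicates 1, 2 and 3 held 32261110, 26653142 and 14396665 estimated counts, and soma replicates 1, 2 and 3 held 10117294, 28567187 and 38848691. At least 1 count was assigned to 58317, 39244 and 66577 transcripts in the neurite libraries and to 27133, 74043 and 102486 in the soma libraries. At the depth of soma replicate 1 (10117294 counts), the other control libraries would be expected to show between 37739 and 88663 transcripts. Soma replicate 1 had no count for 29.3% of the transcripts that averaged at least 10 counts scaled to library size (CPM) in the other 11 human libraries. That share was 12.9% in neurite replicate 2 and between 1.21% and 4.97% in the other 4 control libraries.

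Soma replicate 1 also stood apart in its profile. Over the 69932 transcripts that passed the filter on low counts, its log2 CPM correlated with soma replicates 2 and 3 at Pearson's r of 0.44 and 0.47, whereas those replicates correlated with each other at 0.80. Neurite libraries correlated with each other at 0.57 to 0.67, and with soma libraries at 0.46 to 0.73, so over all transcripts the ranges within and between compartments overlapped. The best match among the control libraries came from the same compartment for 4 of the 6. Among the 8918 transcripts with at least 10 counts in every one of the 12 human libraries, which held 70.7% to 77.3% of the counts of each control library, r was 0.83 to 0.92 between neurite libraries, 0.78 to 0.98 between soma libraries and 0.76 to 0.86 between compartments. On these transcripts the best match of all 6 control libraries came from the same compartment, although the ranges still overlapped. The margin was small for soma replicate 1, with r of 0.80 to soma replicate 3 and 0.78 to neurite replicate 3. Results are therefore given for all 69932 transcripts and again for these 8918, and without the libraries with the fewest transcripts where that moved them.

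**Figure D1:**
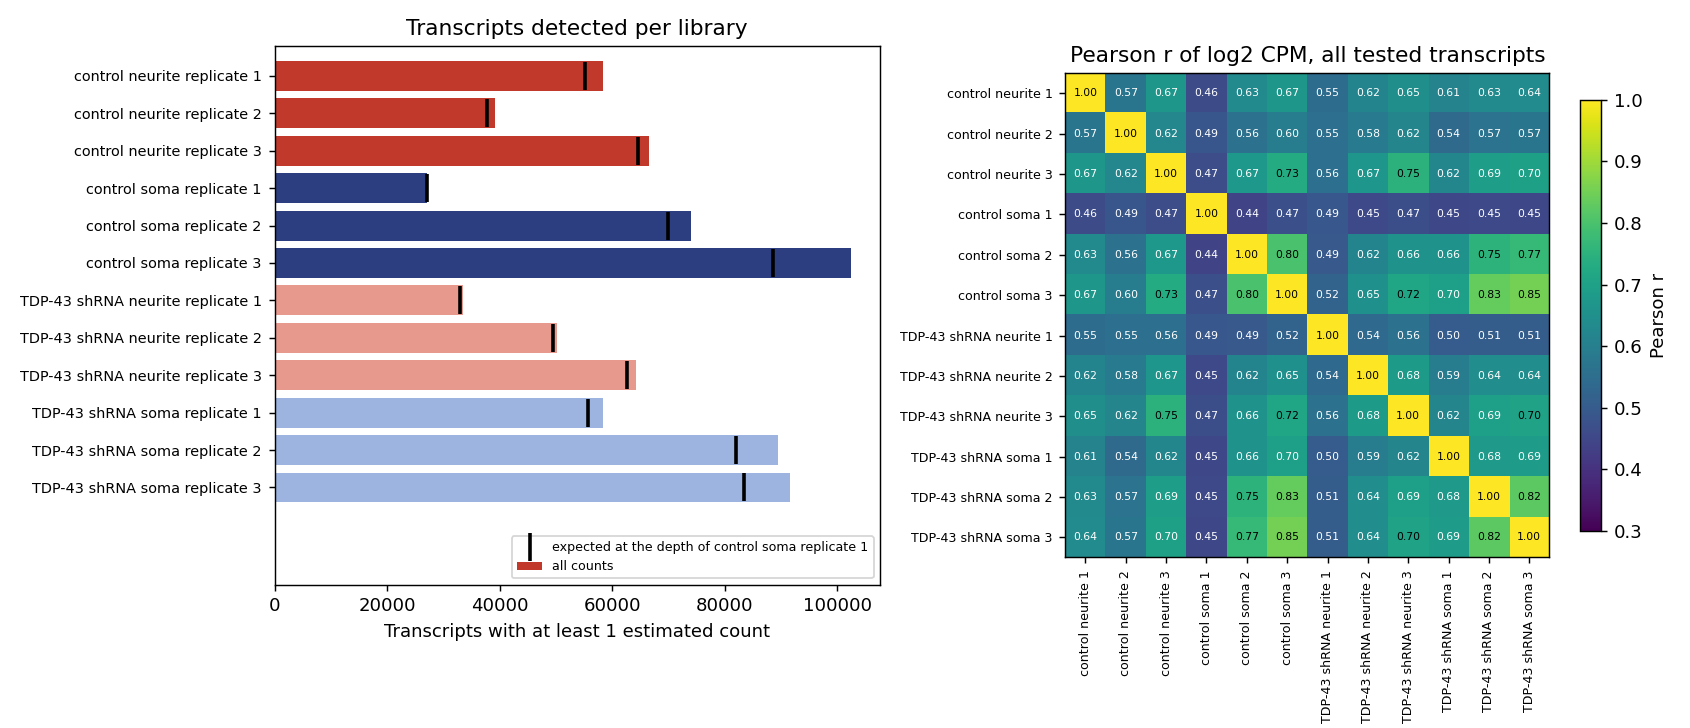
Left, transcripts with at least 1 estimated count in each of the 12 human libraries (bars, coloured by group) and the number expected after thinning to the depth of control soma replicate 1 (black ticks); right, Pearson's r of log2 CPM between libraries over the 69932 tested transcripts. Control soma replicate 1 has the fewest transcripts, 27133, and its r with every other library is below 0.5.

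A small group of transcripts was higher in control neurites beyond the spread between libraries. In edgeR's quasi-likelihood test over all 12 human libraries with Benjamini-Hochberg adjustment, 61 of 69932 transcripts rose in control neurites at an adjusted p below 0.05 (0.0872% of those tested) and 1 fell (0.00143%). An unadjusted p below 0.05 was reached by 5689. The median LR over all tested transcripts was -0.14. The calls rested on the estimate of the spread from all 12 libraries: a fit of the 6 control libraries alone called 0 of 47207 transcripts, with 1520 at an unadjusted p below 0.05 and a lowest adjusted p of 0.193, while the LR of all 61 transcripts stayed above 0 (0.82 to 2.44). DESeq2 called 377 higher and 993 lower, and none of the 61 was among the 377. Single libraries mattered as well: without soma replicate 2, 38 transcripts rose, and without soma replicate 1, 69 rose and 21 fell, while leaving out any 1 neurite library gave 45 to 72 rises and 4 or 5 falls.

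ENST00000508493, a transcript of 553 bases, had the largest rise. Its level was 292, 175 and 334 CPM in neurite replicates 1 to 3 and 39.2, 51.7 and 57.6 CPM in the soma replicates. The neurite mean was 267 ± 82.5 CPM (SD, n = 3) against 49.5 ± 9.41 CPM (SD, n = 3), and the lowest neurite library was above the highest soma library. Its LR was 2.43 ± 0.31 (SE; edgeR adjusted p = 0.00706). In the TDP-43 shRNA arm its LR was 2.42 ± 0.31 (SE; edgeR adjusted p = 0.00489), with neurites at 261, 290 and 284 CPM and soma at 64.8, 46.9 and 44.4 CPM. Without neurite replicate 1 or without soma replicate 2 the control LR was 2.24 and 2.45 and did not pass the threshold.

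ENST00000504562, of 505 bases, came next. Neurite replicates 1 to 3 held 677, 518 and 791 CPM and soma replicates 159, 105 and 131 CPM, again without overlap. Its LR was 2.33 ± 0.25 (SE; edgeR adjusted p = 0.00193) in control cells and 2.53 ± 0.25 (SE; edgeR adjusted p = 0.000654) after TDP-43 shRNA. On the per-length TPM scale the neurite libraries held 2503, 2271 and 2197 TPM and the soma libraries 1029, 485 and 683 TPM. ENST00000508493 was lower on that scale, at 905, 606 and 772 TPM in neurites and 190, 203 and 254 TPM in soma. The upper-quartile scaling, with an LR of 2.16, and limma voom, with 2.43, left ENST00000504562 short of the threshold.

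**Figure D2:**
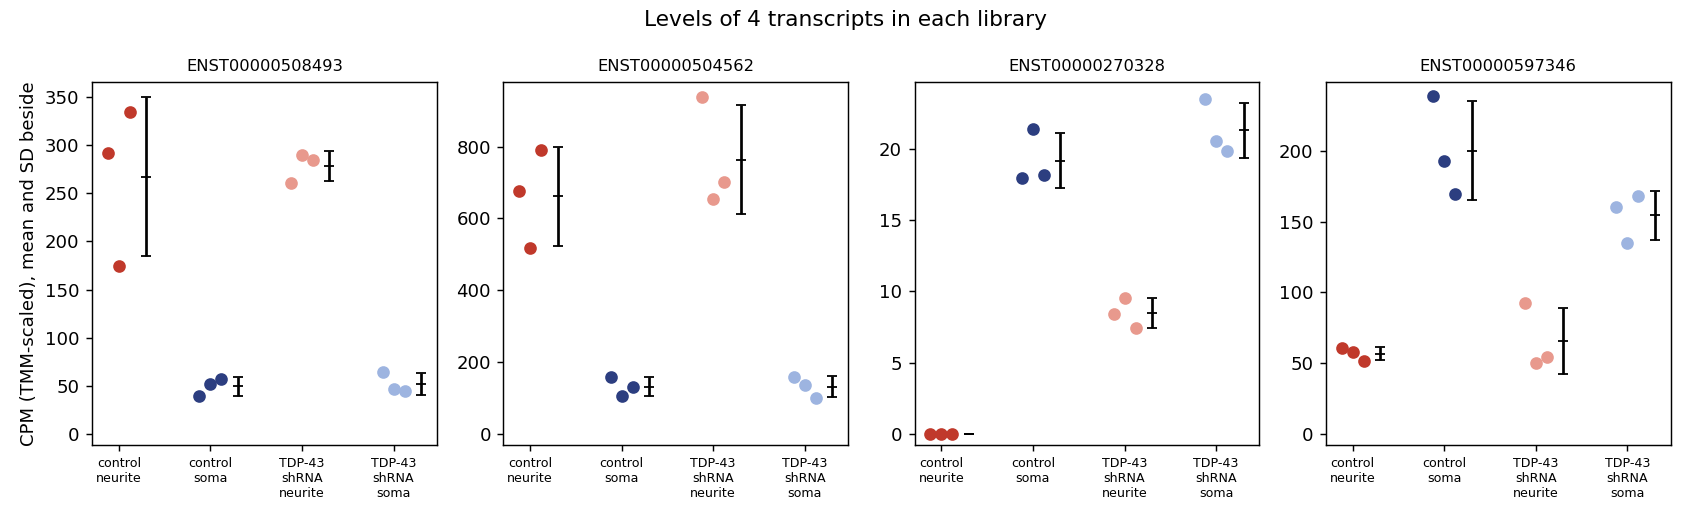
TMM-scaled CPM of 4 transcripts in each of the 12 human libraries (points, 3 per group, replicates 1 to 3 from left to right), with the group mean and SD beside them; each panel has its own linear axis. ENST00000508493 and ENST00000504562 are higher in every neurite library than in any soma library of both arms, while ENST00000270328 is at 0 in the 3 control neurite libraries and ENST00000597346 is lower in every neurite library.

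The 61 transcripts were abundant and mostly short. Their mean level over the 6 control libraries ran from 82.1 to 18726 CPM with a median of 486 CPM, against a median of 1.49 CPM over all tested transcripts. The median SE of the LR was 2.52 under 10 CPM and 0.96 at 10 to below 100 CPM. It was 0.33 at 100 to below 500 CPM and 0.23 at 500 CPM and over. Low transcripts could therefore rarely pass, and the high level of the 61 is not read as a trait of neurite RNA. Their lengths ran from 357 to 8576 bases with a median of 633, against 1672 over all tested, and 48 of the 61 (78.7%) were shorter than 1000 bases, compared with 36.3% of all tested. The LRs ran from 0.82 to 2.43 with a median of 1.74 and standard errors of 0.10 to 0.32. In all 61 every neurite library was above every soma library, a pattern found in 5.24% of the tested transcripts (3661). The reverse pattern was found in 4.98% (3485). The 61 were chosen by a test on these same libraries, so the lack of overlap largely follows from the selection and is not separate evidence. Most tested transcripts were low, and the share with every neurite library above every soma library rose with the level. The 5.24% is therefore not matched to the 61.

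The most abundant of the 61 was a transcript of 1559 bases. It reached 16751, 25136 and 25449 TPM in the control neurites and 6376, 8606 and 7477 TPM in the soma, with an LR of 2.16 ± 0.24 (SE; edgeR adjusted p = 0.00218). The 4 called transcripts of 2000 bases or more were 2078, 3379, 3665 and 8576 bases long, with LRs of 1.14, 1.0, 1.84 and 1.97. The longest of them held 236, 352 and 300 CPM in neurites and 80.3, 69.2 and 77.9 CPM in soma, so short length was not shared by every neurite-enriched transcript.

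As a group, the 61 transcripts took 6.11%, 8.06% and 8.16% of all counts in the control neurite libraries and 3.47%, 2.43% and 2.28% in the soma libraries. These shares describe the selection, which used the same libraries. In the TDP-43 shRNA arm, whose levels did not enter the LR that chose them but whose spread entered the fit, they took 9.21%, 8.44% and 9.22% of the counts in neurites and 2.84%, 2.63% and 2.40% in soma. The groups did not overlap in either arm.

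The enrichment was found again, transcript by transcript, in the TDP-43 shRNA arm. All 61 had an LR above 0 there, against 38.0% of all tested transcripts. In all 61 every neurite library was above every soma library, against 4.87% of those tested. Most tested transcripts were low, however, so these shares are not matched to the 61 in level or length. At a mean of at least 100 CPM over the control libraries, the median LR after TDP-43 shRNA was 1.88 under 500 bases and 1.30 at 500 to 999. In that arm 82 transcripts rose (0.117%) and 14 fell (0.0200%) by the same edgeR test. These became 46 and 5 without its soma replicate 3 and 52 and 6 without its soma replicate 2, and the falls became 39 without its neurite replicate 3, 8 without its neurite replicate 2 and 7 without its soma replicate 1. Of the 61, 60 were among the 82, which is 98.4% of the control list and 73.2% of the other. The exception, of 1435 bases, had an LR of 1.31 ± 0.20 (SE) in control cells and 0.97 with an edgeR adjusted p of 0.142 after TDP-43 shRNA. The median LR of the 61 was 1.74 in control cells and 1.88 after TDP-43 shRNA. Both arms shared 1 estimate of the spread, so that their tests were not fully separate, but they shared no library.

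Over the 8918 transcripts with at least 10 counts in every library, LRs in both arms rose and fell together, with a Spearman's correlation of 0.71 across transcripts, which are not independent replicates, and the same sign in 77.6%. Over all 69932 transcripts it was 0.29.

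**Figure D3:**
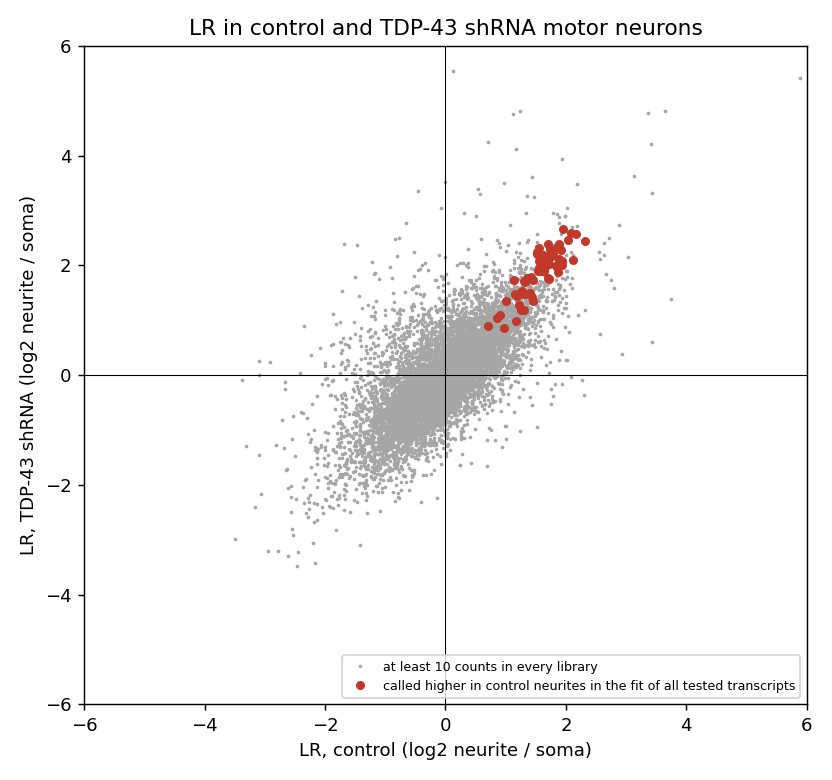
LR in control (x axis) against LR after TDP-43 shRNA (y axis), both log2, for the 8918 transcripts with at least 10 counts in each of 12 human libraries (grey) and the 61 transcripts called higher in control neurites in the fit of all tested transcripts (red). All red points lie to the right of 0 and above 0, and LRs of both arms have a Spearman's correlation of 0.71.

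Decreases in neurites were harder to establish. ENST00000270328, of 4194 bases, was the only transcript that fell, and it was an all-or-none case: no count was assigned to it in any control neurite library, while soma replicates 1 to 3 held 17.9, 21.4 and 18.2 CPM. It did not pass the test in a fit of the 6 control libraries alone or with a replicate block for the culture. Setting the neurites at 3 counts over the group puts the control neurite level at least 436-fold lower, a limit that covers counting error only. Neurite replicates 1 to 3 lacked any count for 4.97%, 12.9% and 3.29% of transcripts averaging at least 10 CPM in the other libraries. After TDP-43 shRNA ENST00000270328 was detected in neurites, at 8.45, 9.52 and 7.45 CPM, with soma at 23.5, 20.6 and 19.8 CPM. The LR there was -1.33 ± 0.84 (SE; edgeR adjusted p = 0.653), and the difference in LR between the arms did not pass the test (edgeR adjusted p = 0.219). Salmon divides reads between transcripts that share sequence, and whether reads went to another transcript of the same gene in the neurite libraries was not tested.

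The transcript with the next lowest p among those with no overlap between compartments, ENST00000597346, did not pass the threshold. It is listed with a length of 91667 bases and held 61.0, 57.8 and 51.6 CPM in control neurites and 238, 192 and 169 CPM in soma. Its LR was -1.82 ± 0.32 (SE; edgeR adjusted p = 0.0750) in control cells and -1.23 ± 0.32 (SE; edgeR adjusted p = 0.419) after TDP-43 shRNA. The groups did not overlap in either arm, and with at least 10 counts in every library its control LR of -1.96 passed.

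More transcripts passed when the test was limited to those that every library measured. Among the 8918 transcripts with at least 10 counts in each library, 428 rose (4.80%) and 336 fell (3.77%) in control neurites at an edgeR adjusted p below 0.05. The risers had a median LR of 1.28 (0.58 to 3.64) and the fallers a median of -1.38 (-3.49 to -0.60). After TDP-43 shRNA, 565 rose (6.34%) and 524 fell (5.88%). All 428 control risers had an LR above 0 in that arm and 332 of them (77.6%) rose there too. Of the 336 control fallers, 333 had an LR below 0 and 232 (69.0%) fell there too. The risers' median LR after TDP-43 shRNA was 1.26, and that of the fallers was -1.23. Without control soma replicate 1, control neurite replicate 2 and TDP-43 shRNA neurite replicate 1, the libraries with the fewest transcripts, 18050 transcripts met the minimum in the remaining libraries, and 704 rose and 666 fell in control neurites.

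Single libraries still decided some of the largest LRs in this set. The largest rise, 3.64 ± 0.70 (SE; edgeR adjusted p = 0.0110), belonged to a transcript of 2513 bases with 16.6, 12.5 and 40.2 CPM in neurites and 2.94, 0.589 and 1.25 CPM in soma, and it was also found after TDP-43 shRNA, with an LR of 4.81. The next, of 3964 bases, had an LR of 3.43, but its neurite levels were 52.9, 3.25 and 5.63 CPM against 1.39, 1.97 and 1.97 CPM in soma, so that 1 neurite library carried the value, and its LR after TDP-43 shRNA was 0.61. The largest fall, -3.49 ± 0.57 (SE; edgeR adjusted p = 0.00563), belonged to a transcript of 3937 bases with 1.56, 2.85 and 2.53 CPM in neurites and 8.30, 34.4 and 34.4 CPM in soma, and its LR after TDP-43 shRNA was -2.99. The next, of 994 bases, had an LR of -3.38 that came from 102 CPM in soma replicate 1. Soma replicates 2 and 3 held 11.6 and 5.41 CPM of it, the neurites held 6.95, 2.44 and 5.22 CPM, and the LR after TDP-43 shRNA was -0.09.

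Transcript length differed between the risers and the fallers. In the set with at least 10 counts in every library, the 428 risers had a median length of 1090 bases (quartiles 699 and 1755) and the 336 fallers 5638 bases (quartiles 3743 and 9135), against 3151 bases for the whole set. The median control LR was 0.94 for the 125 transcripts under 500 bases, 0.55 for 920 transcripts of 500 to 999 bases, 0.30 for 1552 of 1000 to 1999, 0.02 for 2948 of 2000 to 3999, -0.22 for 2564 of 4000 to 7999 and -0.47 for 809 of 8000 bases and over. Each step to longer transcripts lowered the median. The class limits were chosen with these values known, and the gradient is given as a description with no test.

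The calls followed the same order. Under 500 bases 24.8% of the transcripts rose and none fell (31 and 0 of 125), while at 8000 bases and over 0.371% rose and 12.7% fell (3 and 103 of 809). Spearman's correlation between LR and length was -0.40 across the 8918 transcripts. After TDP-43 shRNA the class medians were 1.28, 0.77, 0.37, 0.01, -0.23 and -0.52 from the shortest to the longest class, with a correlation of -0.46. Without the 3 libraries with the fewest transcripts the control medians of the shortest and longest class were 0.90 and -0.54 (325 and 1121 transcripts). After counts were rescaled for each library's effective lengths, the median LR was 0.70 under 1000 bases and -0.21 at 4000 bases and over. That fit was scaled over 64906 transcripts, while the medians without the rescaling, 0.58 and -0.30, came from a fit of the 8918 alone. A fit with no filter and no rescaling gave 0.74 and -0.18, so the part of the rescaling cannot be read from these values. The median of those of 4000 bases and over was -0.06 without soma replicate 3, -0.16 without soma replicate 2 and -0.17 without neurite replicate 2. In the same refits the median under 1000 bases was 0.71, 0.72 and 0.80. These refits were also scaled over all transcripts past the filter, so their values are not directly comparable with 0.58 and -0.30.

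**Figure D4:**
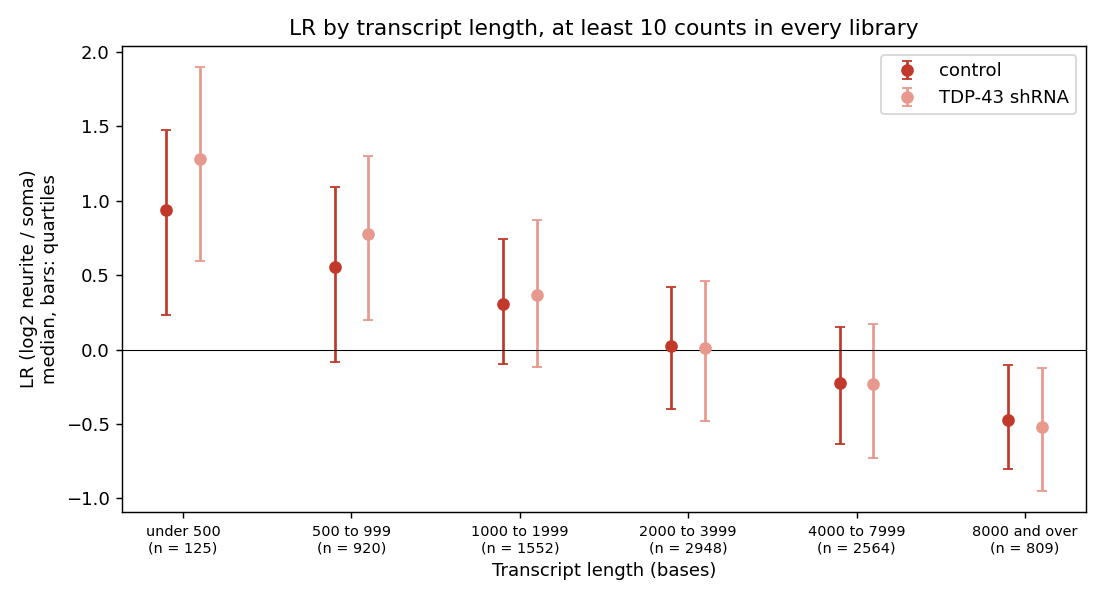
Median LR (log2 neurite / soma) by transcript length for the 8918 transcripts with at least 10 counts in every human library, in control and TDP-43 shRNA motor neurons; bars span the quartiles across transcripts, which are not replicates. The control medians fall from 0.94 under 500 bases to -0.47 at 8000 bases and over, and those after TDP-43 shRNA from 1.28 to -0.52.

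The gradient was also visible library by library. The median log2 CPM of the 1045 transcripts under 1000 bases minus that of the 3373 transcripts of 4000 bases and over was -0.83, -0.83 and -0.63 in the control neurite libraries and -1.05, -1.71 and -1.85 in the soma libraries. All neurite libraries were above all soma libraries, and soma replicate 1 lay closest to the neurites. The mean was -0.76 ± 0.12 in neurites and -1.54 ± 0.43 in soma (SD, n = 3 each). In the TDP-43 shRNA arm the means were -0.74 ± 0.15 and -1.74 ± 0.25 (SD, n = 3 each), again without overlap.

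Among the 69932 transcripts as a whole the gradient was not seen: Spearman's correlation between LR and length was -0.01, and the class medians ran from 0.05 to -0.40 without a steady order. Most of these transcripts were low, 56485 of them under 10 CPM with quartiles of the LR at -1.99 and 0.96. Limited instead by a mean of at least 100 CPM over the control libraries, the medians were 1.57 under 500 bases (33 transcripts), 1.31 for 500 to 999 (160), 0.59 for 1000 to 1999 (243), 0.24 for 2000 to 3999 (471), -0.13 for 4000 to 7999 (466) and -0.47 at 8000 bases and over (218). At 500 to 999 bases, 124 of these 160 transcripts (77.5%) were higher in every neurite library than in any soma library and none was lower in all. At 8000 bases and over, 8 of 218 (3.67%) were higher in all and 52 (23.9%) lower in all.

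Summed on the per-length TPM scale, the longest transcripts made up less of the neurite RNA. Of the TPM of transcripts of 200 bases and over, those of 8000 bases and over took 1.11%, 0.962% and 0.924% in control neurites and 1.22%, 2.11% and 2.39% in soma, or 0.998% ± 0.0973 against 1.91% ± 0.613 (SD, n = 3 each). The compartments did not overlap, but soma replicate 1 was close to the neurites. Transcripts of 4000 to 7999 bases took 5.75% to 6.84% in neurites and 6.70% to 11.4% in soma, which overlapped through soma replicate 1. After TDP-43 shRNA the same classes took 0.846% ± 0.0833 against 2.14% ± 0.302, and 5.26% ± 0.265 against 10.6% ± 1.03 (SD, n = 3 each), without overlap. Those of 2000 to 3999 bases took 14.7% to 16.4% in control neurites and 15.1% to 22.3% in control soma, with overlap. For that class the shares after TDP-43 shRNA were 13.2% ± 0.284 against 21.0% ± 0.774 (SD, n = 3 each), without overlap.

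Shares of short transcripts were less clear in control cells. Transcripts of 200 to 499 bases took 16.7% ± 1.57 in control neurites and 13.7% ± 3.15 in soma (SD, n = 3 each), with overlap, and those of 500 to 999 bases took 34.5% ± 0.608 and 30.0% ± 4.29, also with overlap. After TDP-43 shRNA both shares were higher in every neurite library than in any soma library, at 19.8% ± 1.88 against 11.1% ± 0.501 and 36.0% ± 2.75 against 29.1% ± 1.28 (SD, n = 3 each). Transcripts of 1000 to 1999 bases went opposite ways in the 2 arms, with no overlap in either: they took 26.4% ± 0.242 in control neurites against 25.6% ± 0.430 in soma, and 24.9% ± 0.565 against 26.0% ± 0.489 after TDP-43 shRNA (SD, n = 3 each). Transcripts under 200 bases were kept out of these shares because 1 of them, of 119 bases, varied widely between libraries of 1 group: its level was 9561, 5168 and 55792 TPM in control neurites and 463, 49346 and 253 TPM in control soma. After TDP-43 shRNA it was 4206, 114824 and 116438 TPM in neurites and 799, 10724 and 905 TPM in soma.

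**Figure D5:**
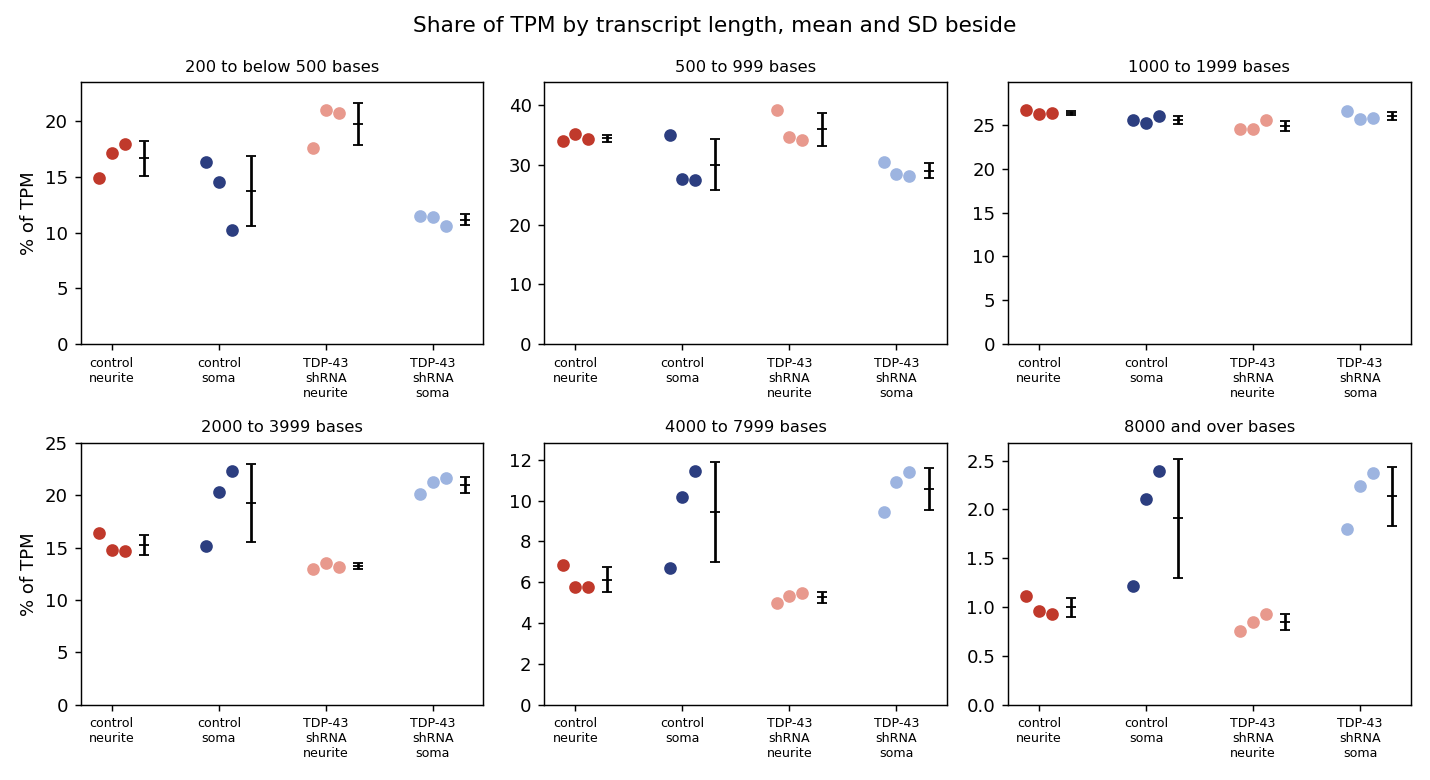
Percent of TPM taken by each length class among transcripts of 200 bases and over, in each of the 12 human libraries (points, 3 per group, replicates 1 to 3 from left to right), with the group mean and SD beside them; every axis starts at 0. Transcripts of 8000 bases and over take 0.924% to 1.11% in control neurites and 1.22% to 2.39% in soma, with control soma replicate 1 nearest to the neurites.

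More transcripts were detected in soma alone than in neurites alone, and their number moved with the libraries counted. Of the 203028 transcripts listed, 507 had at least 10 counts in all 3 soma libraries with 0 in all 3 neurite libraries, and 123 the reverse. Leaving out soma replicate 1 raised these to 4036 and 182. The counts after TDP-43 shRNA were 2319 and 84. Only 40 transcripts were limited to soma in this way in both arms, and 4 to neurites. Depth differed as well: the TDP-43 shRNA neurite libraries held 12878078 to 15267844 counts and the soma libraries of that arm 27692665 to 34604844. The part of depth and of library complexity in these numbers of transcripts was not tested.

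The replicate libraries of the CAD and N2A lines without doxycycline agreed more closely, with a median r of 0.91 (0.89 to 0.93) in CAD and 0.92 (0.90 to 0.93) in N2A over the transcripts tested there. With at least 10 counts in each of their 6 libraries, the median LR was 0.59 under 500 bases and -0.51 at 8000 bases and over in CAD (700 and 864 transcripts), and 0.45 and -0.58 in N2A (741 and 840 transcripts). The order was not steady between these ends, since the median of transcripts of 1000 to 1999 bases, 0.52 in CAD and 0.86 in N2A, was above that of 500 to 999 bases, 0.29 and 0.30. Over all transcripts tested in these lines the medians under 500 bases were -0.27 in CAD and -0.59 in N2A, and at 8000 bases and over they were -0.54 and -0.65. The difference between the species was not tested, and the files were quantified on different transcript sets.

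Whether TDP-43 shRNA changed the LRs of the control cells was asked with the difference of the LR between the arms. It passed the edgeR test at an adjusted p below 0.05 for 3 transcripts (0.00429%), with 3204 at an unadjusted p below 0.05, and each of the 3 had no count in all libraries of 1 TDP-43 shRNA compartment. None of the 61 transcripts was among them: their differences ran from -0.34 to 0.56 with a median of 0.15, the lowest adjusted p was 0.923, and 0 reached an unadjusted p below 0.05. With at least 10 counts in every library edgeR called 0 differences, whereas DESeq2 over 142913 transcripts called 922 higher and 895 lower.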

How the data were processed

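The authors trimmed reads of poly(A) libraries with cutadapt and quantified them with Salmon. The labels name hg38 and mm10, while the release of the human transcripts and tool versions are not given in the sources used here. The deposited tables give an estimated count and a TPM for each transcript and library. Groups came from sample titles. Estimated counts were rounded and TMM-scaled, filtered with filterByExpr, and tested with edgeR 4.0.16 (R 4.3.3; quasi-likelihood, 4 human groups of 3, Benjamini-Hochberg adjusted p below 0.05). The study compared its fractions with DESeq2, which was run here (1.42.0) as an alternative, beside limma 3.58.1 (voom). CPM are TMM-scaled; TPM are as deposited. Named transcripts were the 2 largest rises and falls among called transcripts with no overlap between compartments and a mean of at least 50 counts, and otherwise those with the lowest p. The comparison, the lists and the length classes were chosen with earlier results of these data known. Gene lists and markers could not be applied to transcript IDs. On simulated data the fit returned the known fold changes, and most wrong calls had a 0 in some library. The changed transcripts there all had at least 10 counts in every real library, so recovery of low transcripts was not covered. The 1 control fall and the 3 differences between arms are themselves transcripts with a 0 in some library. Labels do not say whether replicates were separate differentiations, so p-values measure the spread between libraries. All-or-none limits cover counting error only. The human libraries held 10117294 to 38848691 counts. Low depth and few transcripts give less precise LRs, and they did not always go together: control neurite replicate 2 held 39244 transcripts at 26653142 counts.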

Additional observations from a re-analysis of the deposited data

Results flagged for a closer look

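The LR differed between the TDP-43 shRNA and the control arm for 3 transcripts by the test of that difference. A transcript of 10738 bases had a fitted difference of -13.38 (edgeR adjusted p = 0.00643): it held 80.8, 154 and 87.3 CPM in control neurites and 87.7, 38.1 and 118 CPM in control soma, and after TDP-43 shRNA 0 counts in neurites beside 50.0, 49.5 and 29.6 CPM in soma, which is at least 585-fold lower in neurites with the neurites set at 3 counts over the group. A transcript of 9943 bases had a fitted difference of -11.58 (edgeR adjusted p = 0.0162), with 0 counts in TDP-43 shRNA neurites and 125, 111 and 30.6 CPM in soma, while control neurites held 43.0, 138 and 56.7 CPM and control soma 315, 521 and 461 CPM. A transcript of 4061 bases had a fitted difference of 13.61 (edgeR adjusted p = 0.00643), with 0 counts in all TDP-43 shRNA soma libraries and 101, 145 and 358 CPM in neurites, beside 125, 290 and 312 CPM in control neurites and 147, 41.7 and 50.7 CPM in control soma. These fitted values depend on the prior count and are no measure of size, and the 585-fold limit covers counting error only. None of the 3 could be tested with at least 10 counts in every library, and whether Salmon assigned their reads to other transcripts of the same genes was not tested.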

How the results depend on the processing

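In control cells, given as transcripts higher and lower in neurites and beside 61 and 1, an adjusted p of 0.01 left 38 and 1, upper-quartile scaling 20 and 1, DESeq2 377 and 993, limma voom 315 and 125, no filter 301 and 222, a minimum of 10 counts in every library 428 and 336, the 6 control libraries alone 0 and 0, and length-scaled counts 80 and 4. In the TDP-43 shRNA arm, where 82 of 96 calls were higher, the same settings gave 53 of 58, 109 of 128, 530 of 1653, 606 of 1745, 417 of 748, 565 of 1089, 116 of 177 (the 6 libraries of that arm) and 97 of 121. For the difference between arms, beside 1 higher and 2 lower, an adjusted p of 0.01 gave 1 and 1, DESeq2 922 and 895, limma voom 2 and 4, no filter 236 and 151, and the minimum of 10 counts 0 and 0. Leaving out the 3 libraries with the fewest transcripts, chosen after seeing the data, gave 91 and 37 in control cells, 164 higher of 353 in the TDP-43 shRNA arm and 2 and 0 for the difference, and 704 and 666 in control cells with the minimum of 10 counts. Leaving out 1 library at a time gave 38 to 72 higher and 1 to 21 lower in control cells, 46 to 68 higher among 51 to 103 calls in the TDP-43 shRNA arm, and 1 to 2 and 2 to 9 for the difference. The cause of these shifts was not tested.

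Whether equal replicate numbers pair the samples was checked by the correlation of same-numbered deviations from the group means: -0.04, -0.09 and 0.11 in control cells and 0.07, 0.01 and 0.07 in the TDP-43 shRNA arm. Those values cover all tested transcripts, where only 1 of 3 control and 3 of 3 TDP-43 shRNA neurite libraries matched their own number best. With at least 10 counts in every library they were -0.13, -0.16 and 0.01 in control cells and 0.18, 0.08 and 0.19 in the TDP-43 shRNA arm. The control arm thus gave no sign of a pairing by number, and the number was not taken as one. With a replicate block for the culture, 69 transcripts rose and 3 fell in control cells, 87 of 93 calls were higher in the TDP-43 shRNA arm, and the difference had 1 and 2. The LR of ENST00000270328 was -11.82 with the block and -11.89 with the 6 control libraries, and it did not pass the test in either fit.

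The LR of the 61 transcripts was above 0 in each of the 16 refits in which they were tested. The number called higher again was 61 with no filter and with length-scaled counts, 60 with the minimum of 10 counts, 54 with the block, 50 without the 3 libraries, 36 with limma voom, 15 with upper-quartile scaling, 0 with DESeq2 and 37 to 58 with 1 control library left out. The median LR over all tested transcripts was -0.14, and limma voom moved it to -0.66. The median LR of transcripts under 1000 bases with 10 counts in every library was 0.58, was 0.85 without the 3 libraries, and was 0.59 to 0.80 with 1 control library left out. At 4000 bases and over it was -0.30, and -0.37 to -0.06 with 1 left out. The median r within control neurites was 0.62, but 0.060 over the 500 most variable transcripts and 0.55 as Spearman's correlation. Within control soma it was 0.47, but -0.31 over these 500, and between both compartments 0.60 and 0.11. Sums over genes were not run. With 3 libraries a group and these replicate correlations, LRs of low transcripts were not measured closely enough for their order to be read.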
